A study of Mus musculus with 4 samples.

Results

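MicroRNAs (miRNAs) of primary mouse mast cells were compared with and without stem cell factor (SCF), which binds and activates the receptor KIT, on 1 single-colour array per group. Per the labels, bone marrow derived mast cells (BMMC) were grown in SCF and interleukin 3, and total RNA was taken from cells deprived of SCF and from cells given SCF at 100 ng per cc for 24 h. The mouse strain, the number of animals pooled, how long SCF was withheld and whether interleukin 3 stayed in the medium are not stated in the labels. The members are all perfect-match probes named for a mouse, human or rat miRNA, 678 of the 1406 probes on each array, of which 167 carry a mouse, 455 a human and 56 a rat name. They stand for 574 miRNA names. Of these, 389 are mouse miRNAs by a mouse-named probe or a mouse gene of that name, and 185 have neither. Where a name had several probes, the mouse-named one was used, then the human-named, then the rat-named one. The series holds 4 arrays in all; the others are of the KIT-mutant mast cell line P815, kept in cytokine-free medium, with and without the KIT inhibitor imatinib. With 1 array per group no difference has a replicate error, so no test was made, and "higher" and "lower" describe these 2 arrays only.

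A miRNA is a short RNA of the Argonaute complex that represses mRNAs matching its seed, the bases near its 5′ end, and miRNAs with the same seed share most targets. In mast cells KIT signalling drives survival and proliferation, and withdrawal of SCF from a culture that has grown in it removes that signal. miR-221 and miR-222 are known for repressing KIT mRNA, miR-17-92 for promoting proliferation in blood cells, and miR-15 and miR-16 for holding back the cell cycle.

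The array with SCF was dimmer throughout. The median intensity of the member probes was 514.1 without and 361.2 with SCF, and the median of the 604 mismatch probes, which carry altered bases and measure background, was 295.8 and 277.2. A probe is called listed where its intensity was at least 1.5 times that mismatch median, the rule that the authors' processed table follows. By it 60.5% of the member miRNAs were listed without and 40.2% with SCF, 347 and 231 of 574, against 56.1% and 32.7% of the 107 virus and worm probes, which have no known target RNA in these cells apart from worm miRNAs with mouse relatives. The names without a mouse gene were listed at 50.3% and 30.3%, and the mouse miRNAs at 65.3% and 45%. The virus and worm probes were thus listed nearly as often as the members. Of the 350 member miRNAs listed on at least 1 array, 119 were listed only without SCF and 3 only with it. Among the 60 virus and worm probes so listed, these counts were 25 and 0. Unless intensities are named, levels are log2 values after background correction and quantile normalization, and a difference is the level with SCF minus the level without. Brightness also depends on each probe's binding, so a rank orders probes by brightness and not molecules by number.

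Mature sequences are shown for 12 of the brightest mouse miRNAs, since they lead the order on both arrays and some share a seed. They come from RefSeq (GRCm38.p6), for the arm that the older unarmed name stands for, with the seed, bases 2 to 8, in capitals. The probe sequences themselves were not used here.
miR-23a: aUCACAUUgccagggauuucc
miR-29a: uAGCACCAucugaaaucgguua
miR-29b: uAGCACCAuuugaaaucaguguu
miR-103: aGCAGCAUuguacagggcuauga
miR-107: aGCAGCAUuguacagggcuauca
miR-690: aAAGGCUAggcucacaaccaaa
miR-16: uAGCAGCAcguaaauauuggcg
let-7d: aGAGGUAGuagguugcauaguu
let-7i: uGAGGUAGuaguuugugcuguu
miR-21: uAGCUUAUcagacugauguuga
miR-221: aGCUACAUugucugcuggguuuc
miR-24: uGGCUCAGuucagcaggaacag
The 2 miR-29 sequences share a seed, as do miR-103 with miR-107 and let-7d with let-7i, and a probe for one may bind the other. The 5 mouse miRNAs that were at least 2-fold higher with SCF, described further on, shared none of these seeds.
miR-471: uACGUAGUauagugcuuuucac
miR-698: cAUUCUCGuuuccuucccu
miR-7*: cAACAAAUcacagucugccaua
miR-302b: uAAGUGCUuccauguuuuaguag
miR-495: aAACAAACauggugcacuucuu

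The order of the brightest miRNAs was nearly the same on both arrays. miR-709 was brightest, with intensities of 43782 without and 34823 with SCF. It was followed by miR-23b (33040 and 29804) and miR-23a (32354 and 28391), which share a seed and differ little in sequence. miR-29a, a repressor of collagen and DNA methyltransferase mRNAs, read 27947 without and 23648 with SCF. These 4 held ranks 1 to 4 on both arrays, which sets their normalized difference to 0.00 by construction, so their intensities are the better guide. All 4 were dimmer with SCF, by log2 intensity ratios between -0.33 for miR-709 and -0.15 for miR-23b, less than the median of -0.55 over the 350 listed miRNAs.

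Within the 20 brightest, some miRNAs lost more intensity with SCF than others. miR-24, which shares a primary transcript with miR-23a and miR-27a, read 16166 without and 8432 with SCF, a log2 intensity ratio of -0.94. By the same measure miR-23a lay at -0.19 and miR-27a at -0.43. In the related cluster miR-23b lay at -0.15 and miR-27b, which is outside the 20, at -0.71. miR-690 read 26288 and 13960, a ratio of -0.91, and let-7i read 11771 and 6912, a ratio of -0.77. The loss at miR-24 and miR-690 was thus larger than at most of their bright neighbours. At the other end, miR-221 read 13368 without and 13603 with SCF and was the only one of the 20 that was not dimmer with SCF, although its human-named probe, at 14936 and 14446, was. miR-210, the main miRNA induced by hypoxia, read 8728 and 8028, and let-7d read 15713 and 13838. After normalization miR-210 lay at 0.48, miR-221 at 0.34 and let-7d at 0.20, and miR-24 at -0.41 and miR-690 at -0.38. miR-30b, of a large family, read 8710 and 7522 (0.37), and miR-26a 9538 and 7321 (0.11). The other bright probes lay between these. miR-29b read 27337 and 16799 (-0.07), miR-103 read 23694 and 17624 (0.20), and miR-107, which differs from miR-103 near its 3′ end, read 18783 and 14431 (0.00). miR-16 read 18088 and 11528 (-0.17), and miR-467b, of the Sfmbt2 intronic cluster, 10568 and 7584 (0.12). The values above 0 for miR-210, let-7d, miR-30b, miR-26a, miR-103 and miR-467b are relative to the other miRNAs, since all 6 were below 0 when unscaled and in the processed values of the authors, and the values of miR-16 and miR-638 below 0 turned to 0.09 and 0.10 with cyclic loess. None of the 20 was 2-fold apart. Names without a mouse gene entered the 20 with miR-638, at 16508 and 10651, and miR-663, at 12530 and 6878, whose mismatch probes were bright as well, at 10804 and 8770 for miR-638 without and with SCF, and at 4629 and 3015 for miR-663.

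The 2 arrays shared most of their brightest miRNAs. Of the 10 brightest miRNAs on each array 8 were shared, of the 20 brightest 18, of the 50 brightest 48 and of the 100 brightest 90. Among the 100 miRNAs of highest mean level, of which 87 were mouse miRNAs, the median move was 5 ranks and 75 moved by at most 10. Spearman's rho between the arrays was 0.970 over the 574 names and 0.936 over the 350 listed ones, as a description of points that share both arrays, against 0.942 over the 60 listed virus and worm probes. For the P815 pair rho over the 574 names was 0.887. The largest moves up among those 100 were those of miR-471, from rank 173 to 58, miR-698, from 108 to 55, miR-568, from 77 to 48, and miR-518f*, from 113 to 87. miR-15b, which shares its seed with miR-16, went from 74 to 60, and miR-378 from 110 to 96. The largest moves down were those of miR-297, from 86 to 116, let-7d*, from 76 to 102, miR-346, from 66 to 92, miR-564, from 56 to 81, miR-700, from 88 to 112, and miR-640, from 71 to 93.

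The spread of the differences was widest in the second brightest of 5 bins. When the 350 listed miRNAs were cut into 5 bins of 70 by mean level, the SD of the difference was 0.24 in the brightest bin, 0.46 in the next, 0.37 and 0.32 in the following bins and 0.20 in the dimmest. The bin medians lay between -0.09 and 0.00. No miRNA of the brightest bin was 2-fold apart, whereas 4 in the second and 1 in each of the other bins were. Virus and worm probes were also widest in the second bin, with an SD of 0.47 over 19 probes. In the dimmer bins their SD was 0.32, 0.14 and 0.15, and the brightest bin held only 3 of them.

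Few miRNAs differed by 2-fold. Of the 350 listed, 7 had a measured difference of at least 2-fold upward with SCF (2.0%) and 0 of at least 2-fold downward. Of the 7, miR-495 was not listed without SCF and is bounded at only 1.49-fold. The mouse miRNAs gave 5 of 256 (1.95%), the names without a mouse gene 2 of 94 (2.13%), and the virus and worm probes 1 of 60 (1.67%). The share in the mouse miRNAs was thus close to those in the other sets. A name without a mouse gene can still have a mouse relative under another name, as described below for miR-368. Counted over single probes, 9 of 421 were 2-fold higher (2.14%) and 0 lower. At 1.5-fold, 18 of the 350 miRNAs were higher (5.14%) and 2 lower (0.571%), and 22 of the 421 probes were higher (5.23%) and 4 lower (0.950%). The mouse miRNAs gave 12 higher (4.69%) and 2 lower (0.781%), the names without a mouse gene 6 higher (6.38%) and 0 lower, while among virus and worm probes 1 was higher (1.67%) and 3 were lower (5.0%). The SD of the difference was 0.32 over the mouse miRNAs, 0.37 over the names without a mouse gene and 0.31 over the virus and worm probes. The split of 7 higher to 0 lower was not kept under every scaling. Leaving the arrays unscaled gave 2 to 24 and put the median of the listed miRNAs at -0.62 in place of -0.04. The processed values of the authors, whose median was -0.94, gave 2 to 152, and plain subtraction of the mismatch median gave 16 to 10.

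miR-471 had the largest difference. It is a mouse miRNA of an X-linked cluster known from testis, and its probe read 807 without and 1957 with SCF, a 3.84-fold difference after normalization and the only one that was 2-fold under each of the 13 alternatives of processing. The rest of that cluster was lower or near background. Of 7 on the array, 4 were listed on at least 1 array, and miR-465, miR-470 and miR-509, listed only without SCF, lay at 0.00, -0.19 and -0.29. The median of these 4 was -0.09. miR-698, a rodent miRNA with no known role to report here, read 1302 without and 2246 with SCF (2.31-fold). The array has no mismatch probe for miR-471 or miR-698 and only 1 probe for each, so neither signal can be checked on a second sequence.

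miR-7* is the passenger strand of miR-7, a repressor of growth factor signalling, and its rat-named probe read 785 without and 1182 with SCF (2.33-fold). miR-302b, of the pluripotency cluster, read 444 and 630 (2.16-fold), and its mismatch probe 166 and 150.5. The mismatch probe thus stayed well under the matched one and did not move with it. Its neighbour miR-302a read 472 and 588 (1.88-fold) over a mismatch probe at 190 and 166. Without SCF both read close to the limit of listing, which was 443.6 there and 415.9 with SCF. miR-495, of the Dlk1-Dio3 imprinted cluster, was not listed without SCF (338.5) and read 433 with it, at least 1.49-fold higher. This bound rests on the limit of listing, and in the authors' processed values miR-495 lay at -0.19. Its human-named probe gave 335 and 418, so the mouse-named and human-named probes had measured differences of 1.05 and 1.01 from a level under that limit. They target the same miRNA and share both arrays.

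The other 2 miRNAs past 2-fold were miR-616 and miR-368, human names that no mouse gene or mouse-named probe carries. miR-616 was not listed without SCF (439) and read 865 with it, at least 3.06-fold higher, and miR-368 read 883 and 1334 (2.42-fold). Their mismatch probes were dim and went the other way in intensity, from 198 to 175 and from 304 to 254. What RNA bound these probes is not known from these data. Human miR-368 was later renamed miR-376c, and the mouse-named miR-376c probe was not listed on either array and read 391 without and 285 with SCF. Just under the 2-fold limit lay miR-614 (0.95), miR-302a (0.91), miR-505 (0.91), miR-524* (0.88) and miR-568 (0.85). miR-505 has probes under 3 species names, which lay at 0.91, 0.51 and 1.15, and miR-568, at 1964 and 2688, had a brighter mismatch probe, at 3490 and 4310. Of the virus and worm probes, a mouse gammaherpesvirus miRNA probe (miR-M1-6) read 904 without and 1460 with SCF and lay at 1.41, inside the range of these miRNAs.

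The lower side held no large difference. miR-10b, a miRNA of the Hox locus, lay lowest among the probes chosen, at -0.64, with intensities of 646 without and 316 with SCF. Its human-named probe read 662 and 392 (-0.31). It was not listed with SCF, so it was at least 1.11-fold lower, and its mismatch probe, at 428 with SCF, was brighter than the matched one. miR-696 read 1258 and 643, a difference of -0.59. miR-346, whose mismatch probe was also dimmer with SCF (1462 and 861), lay at -0.56, and the human-named miR-346 probe was lower still, at -0.74. miR-129-5p, a neural miRNA, lay at -0.54. miR-106a read 8009 and 3701 on its mouse-named probe, a difference of -0.50, and 6399 and 4113 on its human-named probe, a difference of 0.04. let-7d* and miR-292-5p both lay at -0.49. The other 5 of the 12 lowest were human names without a mouse gene, miR-197 (-0.57), miR-593 (-0.56), miR-564 (-0.55), miR-594 (-0.51) and miR-631 (-0.51).

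Intensities as deposited, before any scaling, do not depend on the normalization. Of the 350 listed miRNAs, 20 were brighter with SCF, against 1 of the 60 listed virus and worm probes. The 20 were 13 of the 256 listed mouse miRNAs and 7 of the 94 listed names without a mouse gene. The share was thus no higher in the mouse miRNAs than in those names. They comprised 13 mouse miRNAs, namely miR-221, miR-568, miR-698, miR-471, miR-7*, miR-497, miR-505, miR-302a, miR-145, miR-302b, miR-429, miR-543 and miR-495, and 7 names without a mouse gene. For miR-429 the mouse-named probe read 480 and 483 and the human-named one, listed on neither array, 400 and 271, and for miR-221 the human-named probe was slightly dimmer with SCF (14936 and 14446). Only miR-221, miR-568, miR-698 and miR-471 of them were among the 100 brightest. The log2 intensity ratio of miR-221 was only 0.03, so it stood apart mainly by not being dimmer, and that of miR-471 was 1.28. Control probes lost intensity too. U6, a spliceosomal RNA, read 238 and 165, under the mismatch medians, and Actb 433 and 320, under the limits of listing. Their log2 intensity ratios, -0.53 and -0.44, are thus of signals at background. The 5 Lambda spike probes lay between -0.57 and -0.41, of which Lambda 5, 6 and 9 were under the limits as well. Brighter controls differed from each other, with -1.0 for the Bio B spike, -0.20 for the Bio C spike and -1.08 for the brightest glycine tRNA probe. The part of overall brightness in these differences was not tested.

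Most mast and myeloid miRNAs were listed on both arrays and differed little. Of 12 on the array, 11 were listed, 10 of them on both arrays. Over all 574 names, 350 were listed, 228 of them on both arrays. Of the 11, 8 lay above and 3 below 0 and none was 2-fold apart. The median was 0.15, against -0.04 over all listed miRNAs, of which 138 lay above and 202 below 0. miR-21, an abundant miRNA of activated leukocytes, read 16139 without and 11497 with SCF (-0.07), and miR-146b, an inhibitor of innate immune signalling, read 8608 and 6009 (0.06). miR-26a and miR-191 lay at 0.11 and 0.36. miR-221 lay at 0.34 and its partner miR-222, with intensities of 3806 and 3266, at 0.21, so the KIT-repressing pair was not lower with SCF on the normalized scale. miR-223, a defining myeloid miRNA, was dim at 1101 and 717. miR-142-3p, a marker of all blood lineages, lay at 0.39 on its mouse-named probe (588 and 519) and at -0.36 on its human-named probe (1100 and 639), so its direction is not settled. miR-126, of endothelium and progenitors, was listed on neither array. The list's median was -0.36 with no scaling and -0.68 in the processed values of the authors, and that of the KIT-repressing pair, 0.27, was -0.10 and -0.36, in each case above the median of all listed miRNAs.

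Markers of other cell types mostly read near or under the limit of listing. Many were listed without SCF, as were 60.5% of all member miRNAs, and few with it. Over all 350 listed miRNAs, 119 were listed only without and 3 only with SCF. Of the erythroid miRNAs, miR-451 read 256 without and 170 with SCF, under the mismatch medians, and miR-144 and miR-486 were listed only without SCF. The lymphoid marker miR-150 was listed on neither array (387 and 263). Of the 6 epithelial miRNAs 4 were listed, 3 of them only without SCF, and none read above 488. Of muscle, miR-133a, miR-133b and the human-named miR-1 probe were not listed, while the rat-named miR-1 probe read 844 and 582 (-0.06). Of brain, miR-9 and miR-219 were not listed, and miR-124a and miR-128a were listed only without SCF. The liver miRNA miR-122a read 664 and 522 (0.19). The medians over the listed members were -0.07 for the erythroid, -0.01 for the stromal, 0.11 for the epithelial and -0.09 for the neural list, and none of these lists held a member 2-fold apart. Exceptions were miR-206, of muscle, at 2653 and 1606 over a mismatch probe at 1677 and 1007, and miR-214, of stromal cells, at 4969 and 3056 over a mismatch probe at 1967 and 1335. Both stood on bright mismatch probes, and neither was higher with SCF (-0.15 and -0.22). The stromal miRNA miR-145 read 490 and 540 (0.74) over a dim mismatch probe at 181 and 189, while miR-143, its neighbour in the genome, lay at -0.01. The stromal marker miR-199a was listed on neither array. Whether other cells contributed to the signals that differed was not tested.

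No list tied to growth held a member 2-fold apart, and the list medians lay between -0.11 and 0.23. Over all 574 names, 350 were listed, 138 above and 202 below 0, with a median of -0.04. Of the miR-17-92 cluster and its paralogs 13 of 14 were listed, 3 lay above and 9 below 0, none was 2-fold apart, and the median was -0.11. Members ran from miR-106a at -0.50 to miR-106b at 0.30, and miR-17-5p, with intensities of 6320 and 3736, lay at -0.13. All 7 of the growth-restraining miR-15 and miR-16 list were listed, with a median of -0.03. That is the value of miR-322 and of miR-424, a name without a mouse gene, both listed only without SCF. miR-16 lay lowest at -0.17 (18088 and 11528) and miR-497 highest at 0.69 (719 and 791). The 3 members of the miR-34 family, which p53 induces, had a median of 0.00. All 9 members of let-7 and miR-98 were listed, with 4 above and 4 below 0 and a median of 0.00, from miR-98 at -0.41 to let-7e at 0.37. The miR-30 list had a median of 0.23 over 4 listed members, which was -0.37 with no scaling and -0.66 in the processed values of the authors. Both lay above the medians of all listed miRNAs in those settings, -0.62 and -0.94. The median was 0.08 over 4 members of miR-181, -0.05 over 3 of miR-29 and 0.00 over the 5 of the clusters with miR-23a and miR-23b. That 0.00 is the value of miR-23a and miR-23b, which is set by their ranks. The median log2 intensity ratio of these 5 was -0.43, against -0.55 over all listed miRNAs.

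Activation-induced miRNAs did not stand apart. Of miR-132, miR-212, miR-155, miR-146a and miR-21, none was 2-fold apart, and the median was -0.02. miR-155, which antigen and cytokine signals induce in immune cells, read 1126 without and 900 with SCF (0.15). miR-212 lay at -0.23 and miR-146a at 0.22, and both were listed only without SCF. Of 41 miRNAs chosen from the Dlk1-Dio3 cluster, 22 were listed, 14 only without and 2 only with SCF, and the median was -0.10. Over all 574 names, 350 were listed, 119 only without and 3 only with SCF. The chosen list leaves out some products of the cluster, such as miR-299-3p and miR-409-3p. Its 2 members listed only with SCF, miR-495 and miR-543, were at least 1.49-fold and 1.64-fold higher. miR-487b, listed only without SCF, was at least 1.29-fold lower. The pluripotency list had 9 of 15 listed with a median of -0.08, and the listed members of its 2 clusters lay on different sides of 0. The 6 listed products of the miR-290 cluster lay between -0.49 and -0.01. In the miR-302 cluster miR-302b, miR-302a and miR-302c lay at 1.11, 0.91 and 0.55. Passenger-strand probes of that cluster, outside the list, went both ways. The mouse-named miR-302c* probe, listed only without SCF, lay at -0.09. The human-named miR-302c* probe, listed on both arrays, read 841 without and 463 with SCF (-0.33). The human-named miR-302b* probe read 1058 and 1064 (0.54). The miR-302c probe read 1118 without and 1108 with SCF, and miR-302d and miR-367 of that cluster were listed on neither array. The Sfmbt2 intronic cluster had 8 of 8 listed, with a median of -0.02 and a range from miR-297 at -0.44 to miR-466 at 0.40.

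miRNAs with a shared seed or a shared genomic neighbourhood differed within their groups nearly as much as between them. Mature sequences were matched to 129 listed mouse miRNAs, of which 64 fell into 21 groups with a shared seed. The SD within those groups was 0.23 and that over the same 64 was 0.24, both below the 0.32 of all listed mouse miRNAs. Among the groups with a narrow range were miR-26a with miR-26b (0.06 to 0.11), miR-34a with miR-449 (0.19 to 0.27) and miR-148a with miR-148b and miR-152 (0.10 to 0.21). The range of miR-29 was narrow too (-0.07 to 0.00), but its brightest member is set to 0.00 by its rank. The log2 intensity ratios were -0.24 for miR-29a, -0.70 for miR-29b and -0.59 for miR-29c. Of 219 listed mouse miRNAs with a single gene, 110 lay in 31 groups of neighbours whose gene starts were at most 10 kb apart. The SD within groups was 0.29 against 0.31 over all 110. Some of these groups hold only the 2 strands of one gene, such as miR-22 with miR-22* and miR-140 with miR-140*. In the X-linked miR-106a cluster miR-106a lay at -0.50 on its mouse-named probe and at 0.04 on its human-named one. miR-20b lay at -0.32 on its mouse-named, -0.03 on its human-named and -0.64 on its rat-named probe. miR-363-3p lay at -0.42 and miR-18b at 0.15. GC content was hardly related to the difference, with Pearson's r of -0.13 and Spearman's rho of -0.06 over the 129, and the length of the mature sequence gave -0.04 and 0.07. These are descriptions across miRNAs measured on the same 2 arrays.

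Probes of one miRNA under different species names give the only repeat of a measurement within these arrays. Of 67 such pairs in which each probe was listed on at least 1 array, 54 had differences of the same sign, the median gap was 0.16, the 95th percentile 0.59 and the largest 0.97. That largest gap was at miR-211, whose human-named probe read 1059 and 1066 (0.55) and whose mouse-named probe read 542 and 304 (-0.42). These gaps come from probes on the same 2 arrays and do not measure the spread between cultures. A mismatch probe existed for 279 listed miRNAs, and in 120 of them the matched probe was at least 2 times as bright on both arrays. Among these 120, miR-302b, miR-368 and miR-616 were 2-fold higher and 0 were 2-fold lower.

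In P815 cells, treated with imatinib at 10 nM for 24 h in place of a change in SCF, 4 of the 7 miRNAs higher with SCF were listed. With imatinib minus without, miR-698 lay at 1.83, miR-7* at 0.48, miR-471 at 0.26 and the human-named miR-368 at 0.04. miR-302b, miR-495 and miR-616 were listed on neither P815 array, so no difference is given for them. The SD of the difference between the P815 arrays was 0.85 over 251 listed member miRNAs, against 0.33 over 350 in BMMC. Whether the treatments differ was not tested, since each has 1 array per group.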

How the data were processed

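Total RNA was labelled with Cy3 by RNA ligase and hybridised to 1 array per group, per the labels. The authors deposited, per the file headers, 1 intensity per probe, the mean of foreground medians, linear and with no background column. The array's maker and the scanner software are not stated in the labels. The authors' processed table equals the intensity minus the array's median mismatch probe, left blank under 1.5 times that median (802 of 802 entries matched on each BMMC array). The array with SCF was further scaled by 0.834.

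All probes were corrected with normexp (offset 50, limma 3.58.1, R 4.3.3), and the matched miRNA probes quantile normalized over 4 arrays. The background correction and normalization were tested on simulated data. Gene names came from the RefSeq table of GRCm38.p6 (379 of 389 mouse miRNAs matched). A miRNA entered if listed on at least 1 BMMC array. "At least N-fold" sets the listed level against the lowest listed level on the other array, or the probe's own if higher. The miRNAs named were the 20 brightest, the 12 highest and 12 lowest differences, the 6 largest rank moves each way in the 100 brightest, and each list's extremes; others were chosen after their values were seen. Members and lists were chosen with earlier results of these data known. The 13 alternatives covered background, scaling, source of values, filter and probe choice. The number of arrays limits the precision.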

Additional observations from a re-analysis of the deposited data

How the results depend on the processing

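No paired analysis was possible because each group has 1 array. The counts of 7 miRNAs at least 2-fold higher and 0 lower with SCF stayed within 1.5 times under 7 of the 13 alternatives: no background correction, a normexp offset of 16, the 75th percentile, listing on both arrays, no detection filter, the human-named probe first and the mean over species-named probes. Higher miRNAs numbered 12 with median centring, 11 with quantile normalization over the BMMC arrays only and 12 with cyclic loess, each with 0 lower. Subtracting the median mismatch probe gave 16 higher and 10 lower, no scaling between arrays 2 and 24, and the authors' processed values 2 and 152. miR-471 passed 2-fold under all 13 alternatives, miR-616 under 12, and miR-495 under 9. In the authors' processed values, where a blank was set at the lowest listed value, miR-495 turned to -0.19. miR-221 lay between -0.23 and 0.72, below 0 only in the authors' processed values. Causes were not tested. Signal over background limits the result: 224 of the 574 miRNAs were listed on neither BMMC array.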
